A study of Homo sapiens with 12 samples.

Results

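The ATXN7 family and the deubiquitinase module of SAGA were followed here through 9 genes, ATXN7, ATXN7L1, ATXN7L2, ATXN7L3, ATXN7L3B, USP22, USP27X, USP51 and ENY2, out of 60662 genes in the RNA count files. The list joins the ATXN7 family with the ubiquitin proteases and the shared adaptor that work with it. ATXN7L3B was chosen by its measured fall in RNA, footprints and their ratio under treatment, so its values are given as a description without a test. The other 8 were taken as members of the same family or complex. In RefSeq, ATXN7L3B lies on chromosome 12 and its parent ATXN7L3 on chromosome 17, as does USP22, while USP27X and USP51 lie on chromosome X. All 9 passed the filter on low RNA counts. ATXN7 was not analysed here in footprints, which leaves 8 genes in the series table of footprint and RNA signal.

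The cells were HEK293T, an established human embryonic kidney line that carries the SV40 large T antigen, labelled wild type in both arms. The treated arm was kept for 6 h in medium with 20 µM STM2457, which blocks the RNA methyltransferase METTL3, the writer of m6A, and with 0.2% DMSO, and the control arm for the same time in 0.2% DMSO. Both arms also received an extra 10% of serum 1 h before lysis and cycloheximide at 100 µg/ml for the final 3 min. RNA-seq was made from 4 libraries an arm. Ribosome profiling (Ribo-seq), which sequences the 26 to 34 nt of RNA that a ribosome protects, was made from 2 libraries an arm. Whether replicates came from separate cultures is not in the labels, and the spread behind each p-value, that among libraries, could be a technical one.

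SAGA is a transcriptional coactivator with an acetyltransferase module and a deubiquitinase module on a common core. In the deubiquitinase module the ubiquitin protease USP22 removes ubiquitin from histone H2B, ATXN7L3 and ENY2 are the adaptors it needs for activity, and ATXN7 or one of its paralogues ties the module to the core. USP27X and USP51 are related proteases that use ATXN7L3 and ENY2 outside SAGA. ATXN7L3B is a copy of ATXN7L3 that is found in the cytoplasm and binds ENY2, for which it competes with ATXN7L3. m6A is a methyl mark on mRNA that reader proteins recognise and that is known for its links to mRNA decay and translation.

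RNA-seq totals ran from 43291730 to 51645739 reads a library, and recovered footprint reads from 3198063 to 4711513. ERCC spike-in sequences took 0.389% to 0.408% of the RNA-seq reads with DMSO and 0.415% to 0.466% with STM2457, without overlap. The summed level of 8 HEK293 marker genes 1188 to 1240 per 1e+06 counted reads (CPM) in DMSO libraries and 1208 to 1276 CPM in STM2457 libraries. Sums of 6 fibroblast, 5 blood and 6 epithelial carcinoma markers lay between 2.01 and 22.0 CPM in every library, with HBB and KRT5 at 0 counts throughout. No group of 4 RNA-seq libraries held a library that stood apart in any of the 9 genes.

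ATXN7L3B (ENSG00000253719.3) was lower in RNA with STM2457 and lower still in footprints, whereas RNA of its parent ATXN7L3 (ENSG00000087152.15) stood slightly higher, except on spike-in scaling. ATXN7L3B RNA stood at 167, 172, 165 and 162 CPM with DMSO and at 47.0, 43.2, 47.1 and 43.3 CPM with STM2457. The highest treated library was below the lowest control library by more than the whole spread within either arm. The mean was 3.69-fold lower with STM2457, a log2 change of -1.88 (SE 0.04). From the lowest, this change ranked 64 of 17807 tested genes, and 7 of 11258 genes with a mean of at least 5 CPM. In bulk libraries such as these, fewer cells with a transcript and less of it per cell cannot be told apart.

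ATXN7L3 RNA stood at 116.7, 123.3, 116.6 and 117.9 CPM with DMSO and at 134.8, 132.0, 128.1 and 133.8 CPM with STM2457. The arms did not overlap, and the direction was opposite to that of the copy. The log2 change was 0.16 (SE 0.03, adjusted p = 0.000453 with edgeR's quasi-likelihood test, Benjamini-Hochberg over all tested genes, threshold 0.05) with TMM scaling, which centres libraries on the bulk of their genes. Scaling to the ERCC spike-ins, synthetic RNAs present in every library, turned it to -0.04 (adjusted p = 0.482). Under that scaling the median of all genes moved by -0.19, so a change of -0.04 was still above the median gene. The 2 genes are similar in sequence, and how reads that fit both were counted is not given in the sources used here, so sharing of reads between them was not tested. The pseudogene ATXN7L3P1 and the antisense gene ATXN7L3-AS1 had 0 counts in the 8 RNA-seq libraries. The protein-coding gene TMUB2 also overlaps ATXN7L3 in RefSeq, and a share of its reads in the ATXN7L3 counts was not tested.

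**Figure D1:**
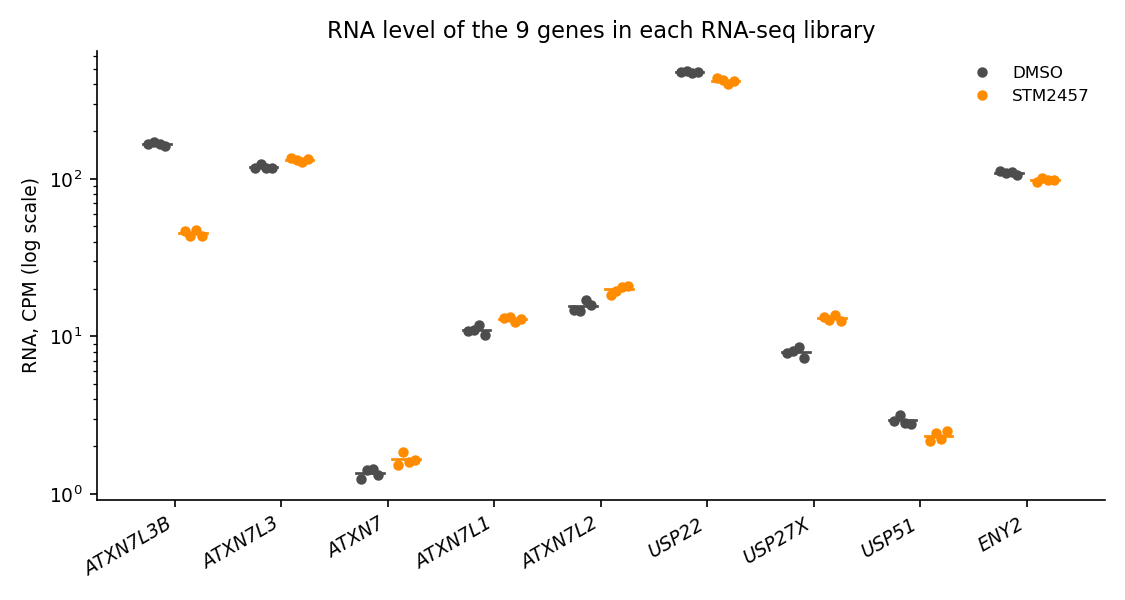
RNA level in CPM on a log axis for the 9 genes, with a point for each of 4 DMSO and 4 STM2457 RNA-seq libraries and a bar at the arm's mean. ATXN7L3B drops from a mean of 166.7 to 45.2 CPM while the other means move by 1.64-fold (USP27X) or less; levels are not corrected for gene length and are to be compared between arms, not between genes, and on ERCC scaling ATXN7L3 reverses, to -0.04.

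Because both genes are read in the same library, their difference does not depend on how libraries were scaled. The log2 CPM of ATXN7L3B minus that of ATXN7L3 was 0.52, 0.48, 0.50 and 0.46 with DMSO and -1.52, -1.61, -1.44 and -1.63 with STM2457. The means were 0.49 ± 0.03 (SD, n = 4) and -1.55 ± 0.09 (SD, n = 4). ATXN7L3B therefore lost 2.04 log2 units against ATXN7L3, a change of -2.04 that left the arms far apart. The offset itself is not corrected for length, so only its change is read. No test is given, since ATXN7L3B was chosen for this fall.

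Footprints told the same pair apart more widely. ATXN7L3B had 220 and 177 footprint reads with DMSO and 25 and 24 with STM2457, a normalized signal of 708 and 853 against 95.0 and 93.7. On the log2(signal + 1) scale the change was -3.03 (SE 0.23), 8.16-fold lower, and it ranked 2 of 10906 tested genes from the lowest. ATXN7L3 had 67 and 30 reads with DMSO and 35 and 42 with STM2457, a signal of 215.6 and 144.6 against 132.9 and 164.0. Its arms overlapped, and its change of -0.26 (SE 0.29) did not pass the test (limma adjusted p = 0.630). Leaving out DMSO replicate 1 moved it to 0.03.

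Within each footprint library, log2(signal + 1) of ATXN7L3B minus that of ATXN7L3 was 1.71 and 2.55 with DMSO and -0.48 and -0.80 with STM2457. The means were 2.13 ± 0.60 (SD, n = 2) and -0.64 ± 0.23 (SD, n = 2), a change of -2.77. The wide DMSO spread came with the few ATXN7L3 reads, 67 in one library and 30 in the other. Leaving out each library in turn gave changes from -3.19 to -2.35.

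**Figure D2:**
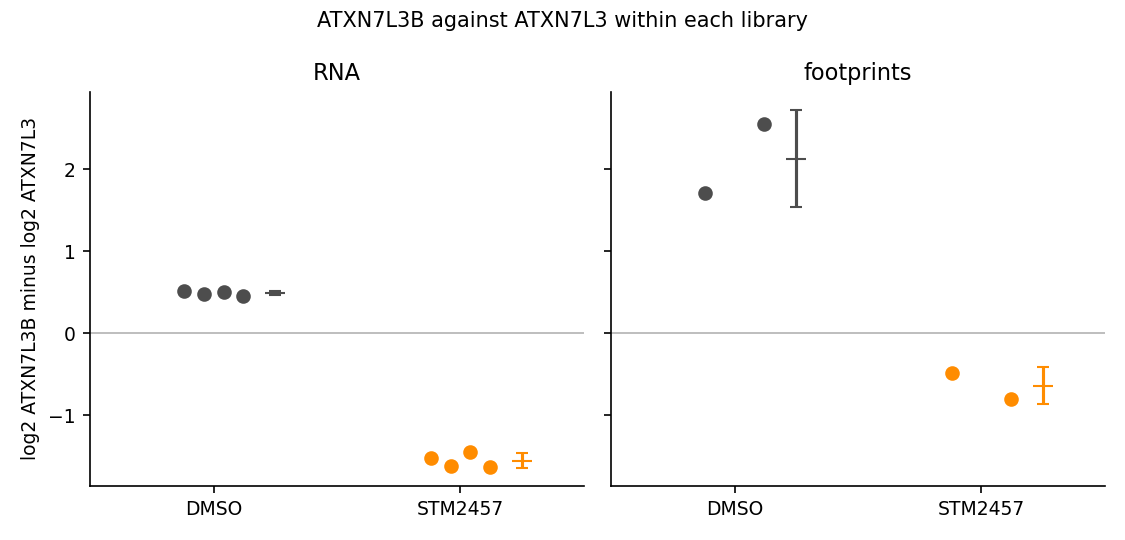
The log2 level of ATXN7L3B minus that of ATXN7L3 within each library, for RNA (left, 4 libraries an arm) and footprints (right, 2 libraries an arm), with a bar and whiskers for the mean and SD. Each DMSO library lies above 0 and each STM2457 library below it; the RNA means are 0.49 and -1.55 and the footprint means 2.13 and -0.64.

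The larger fall in footprints than in RNA appears as a lower translational efficiency, the footprint signal over the RNA signal. In the authors' deposited table, ATXN7L3B efficiency went from 1.68 with DMSO to 0.794 with STM2457, from the 85.5th to the 36.1st percentile of genes in the table. By footprint library, over the authors' mean RNA signal of the arm, efficiency was 1.53 and 1.84 with DMSO and 0.799 and 0.789 with STM2457, without overlap. That mean RNA signal was of replicates 1 to 3 for DMSO. Both values of an arm share it, so their spread is that of footprints only. The fitted change of efficiency was -1.06 (SE 0.21), 2.09-fold lower. It is the log2 footprint change beyond the change in the RNA signal of the series table, not in the RNA counts. The efficiency change ranked 91 of 10906 from the lowest. Its rank is not compared with those in RNA and footprints, since the measures differ in error or in the genes tested. Over the alternative settings the change stayed between -2.08 and -1.86 for RNA, between -3.16 and -2.90 for footprints and between -1.20 and -0.93 for efficiency.

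ATXN7L3 began at the other end of the efficiency scale. In the authors' deposited table its efficiency with DMSO was 0.173, rank 281 of 12224 from the lowest, and 0.135 with STM2457. By footprint library it was 0.207 and 0.139 with DMSO and 0.121 and 0.149 with STM2457, and the arms overlapped. The fitted change was -0.36 (SE 0.18, limma adjusted p = 0.584), and it ran from -0.64 without footprint DMSO replicate 2 to -0.07 without footprint DMSO replicate 1. Over which stretch of a gene each assay's reads were counted is not given in the sources used here, so the order of genes by efficiency is a description.

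Of the 8 genes with a value, ATXN7L3B, USP22 and USP51 had the highest efficiency with DMSO, at 1.68, 1.67 and 1.66 in the authors' deposited table, and their DMSO libraries overlapped. ENY2 followed at 1.13, with libraries at 1.19 and 1.07, below all libraries of the first 3. ATXN7L1, ATXN7L2 and USP27X followed at 0.770, 0.679 and 0.561 in that table. ATXN7L1 and ATXN7L2 overlapped between their DMSO libraries, and ATXN7L2 at 0.741 and 0.618 lay above USP27X at 0.534 and 0.589. ATXN7L3 was last, and its higher DMSO library at 0.207 was below the lower of USP27X. With STM2457, ATXN7L3B at 0.799 and 0.789 had come down among ATXN7L1 and ATXN7L2, whereas USP22 remained at 1.64 and 1.75. The median of all genes in that table was 1.01 with DMSO and 1.00 with STM2457.

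**Figure D3:**
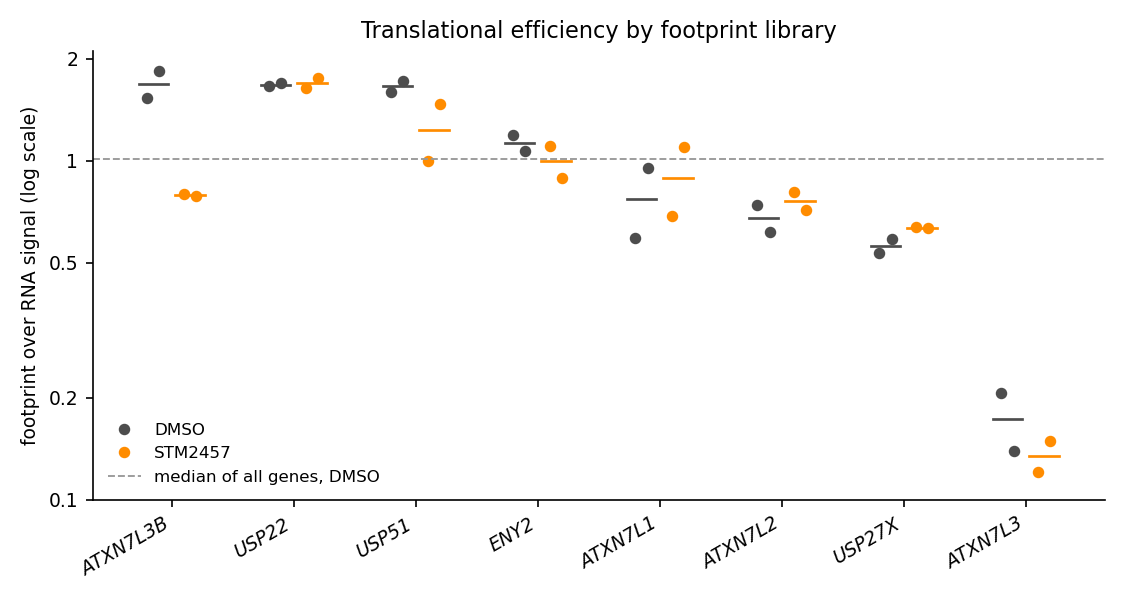
Footprint signal of each Ribo-seq library over the authors' mean RNA signal of the arm (replicates 1 to 3 for DMSO), on a log axis. The 8 genes are those in the series table, and a bar marks the mean of the 2 libraries. ATXN7L3B moves from 1.53 and 1.84 to 0.799 and 0.789, and ATXN7L3 lies lowest in both arms, between 0.121 and 0.207; the dashed line is the median of all genes with DMSO, 1.01.

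The other 8 genes all passed the RNA test, 5 higher and 3 lower with STM2457, beside 47.8% of all tested genes called in either direction, 26.2% higher and 21.6% lower. Their arms did not overlap in 8 of 8, beside 44.7% of all genes. Most of the changes were small: log2 changes ran from -0.32 to 0.72 with a median of 0.19, against 0.00 over all tested genes. With ERCC scaling 4 were called, USP27X higher and USP22, USP51 and ENY2 lower, beside 59.2% of all genes, 12.1% higher and 47.2% lower. Fits that used replicates 3 and 4 alone called 5 of the 8.

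ATXN7, whose expanded glutamine repeat causes an inherited ataxia with retinal degeneration, was the least abundant, with 65, 71, 68 and 68 counts under DMSO and 75, 88, 68 and 77 under STM2457. In CPM the DMSO libraries stood at 1.24, 1.42, 1.44 and 1.32 and the STM2457 libraries at 1.52, 1.85, 1.60 and 1.65, without overlap. The log2 change of 0.29 (SE 0.11, adjusted p = 0.0427 with edgeR) was lost in 13 of 15 alternatives, with 0.09 (adjusted p = 0.579) under ERCC scaling and 0.23 (adjusted p = 0.139) without STM2457 replicate 2. Leaving out DMSO replicate 1, 2, 3 or 4, or STM2457 replicate 3 or 4, lost the call as well, at adjusted p from 0.0546 to 0.115. THOC7 and the antisense RNA SCAANT1 overlap the ATXN7 gene in RefSeq, and whether counting used strand is not given in the sources used here. RefSeq also has genes that overlap ATXN7L1 (RPL13AP16), USP22 (LOC124900389) and USP51 (LOC101928692).

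ATXN7L1 and ATXN7L2, paralogues of ATXN7 that can stand in its place in SAGA, were both higher in RNA on TMM scaling and did not pass the test on ERCC scaling, at 0.03 (edgeR adjusted p = 0.714) and 0.16 (adjusted p = 0.0635). ATXN7L1 stood at 10.8, 10.9, 11.8 and 10.2 CPM with DMSO and at 13.0, 13.2, 12.3 and 12.9 CPM with STM2457, a log2 change of 0.23 (SE 0.06, adjusted p = 0.00367 with edgeR). That call was also lost with the RNA signal of the series table (0.15, limma adjusted p = 0.0888) and with replicates 3 and 4 alone (adjusted p = 0.104). ATXN7L2 stood at 14.7, 14.4, 17.0 and 15.8 CPM with DMSO and at 18.4, 19.5, 20.6 and 21.0 CPM with STM2457, a log2 change of 0.36 (SE 0.06, adjusted p = 0.000336). Neither gene's arms overlapped. ATXN7L2 against ATXN7L1 within a library changed by only 0.13 in RNA, with overlap between the arms.

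Footprints of the same paralogues did not pass the test. ATXN7L1 had 28 and 30 reads with DMSO and 29 and 45 with STM2457, a signal of 90.1 and 144.6 against 110.1 and 175.7, and the arms overlapped. Its change of 0.28 (SE 0.33, limma adjusted p = 0.644) turned to -0.06 without DMSO replicate 1. ATXN7L2 had 79 and 44 reads against 88 and 76, a signal of 254 and 212 against 334 and 297. These arms did not overlap, but the change of 0.44 (SE 0.23) had an adjusted p of 0.207 with limma.

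USP22, the catalytic subunit of the module, was lower in both RNA and footprints by about the same amount. Its RNA stood at 479, 483, 469 and 476 CPM with DMSO and at 439, 424.5, 399 and 416 CPM with STM2457. Every treated library was below every control library, with a log2 change of -0.18 (SE 0.03, adjusted p = 0.000149 with edgeR) and of -0.38 under ERCC scaling. USP22 had 1973 and 1344 footprint reads with DMSO and 1379 and 1431 with STM2457, which became a normalized signal of 6350.2 and 6478 against 5237 and 5587. The footprint change was -0.25 (SE 0.09, limma adjusted p = 0.0466), and the efficiency change 0.03 (SE 0.11, adjusted p = 0.982).

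The USP22 footprint call was close to the threshold. The call was lost with edgeR on the recovered reads (adjusted p = 0.0705), without the mean-variance trend in limma (adjusted p = 0.323), and when DMSO replicate 1 (adjusted p = 0.189), DMSO replicate 2 (adjusted p = 0.297) or STM2457 replicate 1 (adjusted p = 0.171) was left out. It was the only footprint call among the 7 genes other than ATXN7L3B, beside 15.7% of all tested genes, 9.59% higher and 6.13% lower. The arms did not overlap in 5 of the 7, beside 54.0% of all genes.

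USP27X, which shares the adaptors with USP22 but acts outside SAGA, moved the other way. Its RNA stood at 7.80, 8.06, 8.51 and 7.30 CPM with DMSO and at 13.3, 12.7, 13.6 and 12.4 CPM with STM2457. The arms were clearly separate, and the log2 change of 0.72 (SE 0.06, adjusted p = 6.15e-07 with edgeR) was 1.64-fold and remained 0.52 (adjusted p = 7.55e-06) under ERCC scaling. Footprint reads were 19 and 14 with DMSO and 31 and 30 with STM2457, a signal of 61.2 and 67.5 against 117.7 and 117.1. The footprint change was similar in size, 0.86 (SE 0.38), but with so few reads it did not pass the test (limma adjusted p = 0.125). Against USP22 within the same library, USP27X gained 0.90 in RNA and 1.11 in footprints on the log2 scale. The arms did not overlap in either. Arms of single genes did not overlap in 44.7% of all genes in RNA and 54.0% in footprints.

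USP51, the other protease that uses the adaptors outside SAGA, was lower. Its RNA stood at 2.92, 3.15, 2.84 and 2.80 CPM with DMSO and at 2.17, 2.44, 2.23 and 2.51 CPM with STM2457, without overlap, a log2 change of -0.32 (SE 0.09, adjusted p = 0.00742 with edgeR). With ERCC scaling the change was -0.52 (adjusted p = 0.000166), and replicates 3 and 4 alone lost the call (adjusted p = 0.213). Footprint reads were 18 and 13 against 7 and 10, a signal of 57.9 and 62.7 against 26.6 and 39.0. The footprint change of -0.88 (SE 0.53, limma adjusted p = 0.289) rested on these few reads and did not pass the test. Against USP22 within a library USP51 changed by -0.13 in RNA, with overlap between the arms, and by -0.64 in footprints, without overlap. The latter rests on the same few reads in 2 libraries an arm. Footprint arms of single genes did not overlap in 54.0% of all genes. The 3 proteases thus did not share a direction in RNA, 1 higher and 2 lower, under either scaling.

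ENY2, the small adaptor that is also a subunit of the mRNA export complex TREX-2, was lower in RNA. It stood at 111.7, 108.6, 110.1 and 105.6 CPM with DMSO and at 95.9, 101.5, 98.1 and 97.8 CPM with STM2457, without overlap. The log2 change was -0.15 (SE 0.03, adjusted p = 0.000687 with edgeR) and -0.35 under ERCC scaling, but -0.07 with the RNA signal of the series table, where the call was lost (limma adjusted p = 0.0657). Footprint reads were 783 and 469 with DMSO and 589 and 460 with STM2457, a signal of 2520.1 and 2260.4 against 2237 and 1796. The footprint change of -0.25 (SE 0.11) had an adjusted p of 0.127 with limma. It depended on the library left out, at -0.41 (adjusted p = 0.0104) without STM2457 replicate 1 and -0.09 (adjusted p = 0.714) without STM2457 replicate 2. ENY2 and USP22 kept step within libraries: their RNA difference changed by 0.04, with overlap between the arms.

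**Figure D4:**
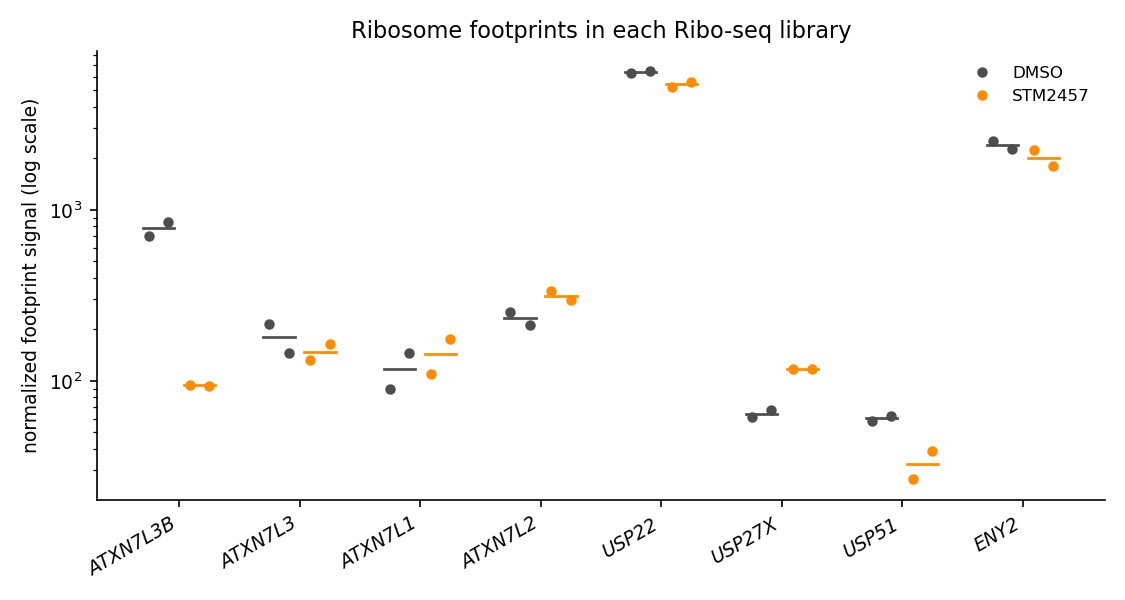
Normalized footprint signal on a log axis for the 8 genes in the series table, with a point for each of 2 DMSO and 2 STM2457 Ribo-seq libraries and a bar at the arm's mean. ATXN7L3B goes from 708 and 853 to 95.0 and 93.7, while the arms of ATXN7L3 and ATXN7L1 overlap.

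No efficiency test is given for ATXN7L3B. Of the other 7 genes, 0 passed with limma, 0 had an unadjusted p under 0.05, and 0 passed with the edgeR interaction. Of all tested genes 1.04% were called with limma, 0.229% higher and 0.807% lower. Log2 changes of the 7 genes lay between -0.53 for USP51 (SE 0.42, limma adjusted p = 0.806) and 0.19 for USP27X (SE 0.27, adjusted p = 0.928). ENY2 stood at -0.19 (SE 0.12, adjusted p = 0.740), and ATXN7L1 and ATXN7L2 both at 0.14. With a library left out, USP51 ran from -0.79 to -0.26, ENY2 from -0.34 to -0.03, ATXN7L2 from 0.01 to 0.27 and ATXN7L1 from -0.20 to 0.47. The SEs of 0.11 to 0.42 are wide against these values, and 2 SEs below the USP51 value lies beyond the -1.06 of ATXN7L3B.

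**Figure D5:**
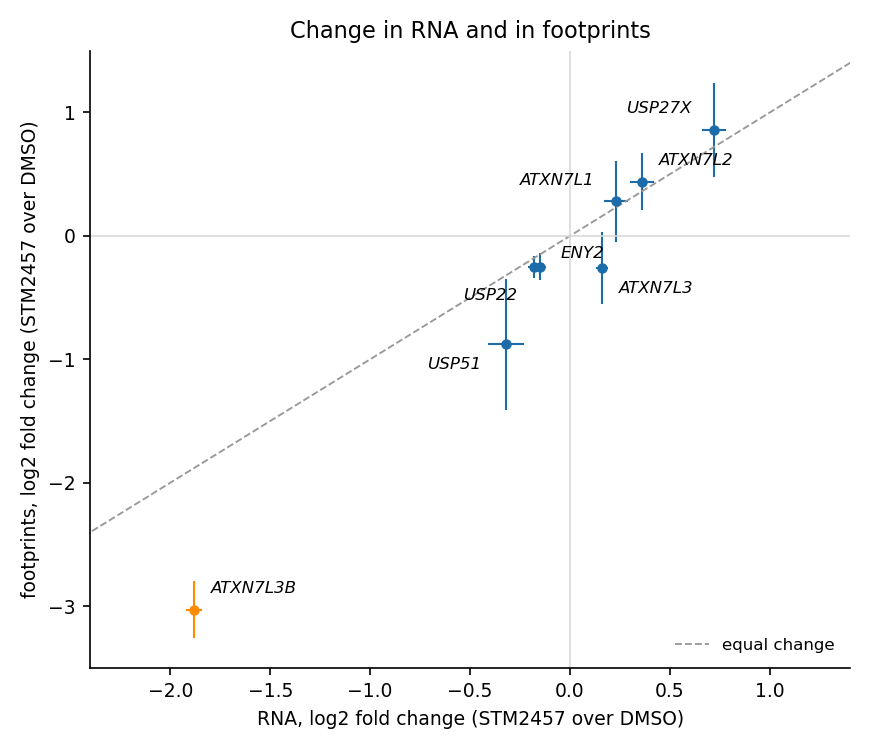
Log2 fold change of footprints against that of RNA for the 8 genes in both assays, with whiskers of 1 SE and a dashed line of equal change. ATXN7L3B lies at -1.88 and -3.03, below the line, and the other 7 genes lie within 0.9 of 0 on both axes; RNA values use TMM scaling, and ERCC scaling takes ATXN7L3 to -0.04.

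Genes that work beside the module were counted in 8 lists of 65 genes in all, chosen with earlier results of these data known. Of 64 tested in RNA, 21 were higher and 16 lower, beside 26.2% and 21.6% of all tested genes, with a median log2 change of 0.04 against 0.00 over all tested genes. On ERCC scaling 10 were higher and 40 lower, beside 12.1% and 47.2% of all genes, so counts by direction hold for TMM scaling only. Of 62 tested in footprints, 4 were higher and 2 lower, beside 9.59% and 6.13% of all tested genes; their median was -0.03 against -0.02 over all genes. Without the mean-variance trend 0 of the 62 were called, and without DMSO replicate 1 only 2. In efficiency 0 of 62 were called, beside 1.04% of all genes. These shares of all genes are also the background for the count of each list, and nothing particular to a list is read from its count.

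Of 10 SAGA core subunits 4 were higher in RNA, 3 lower and 3 not called (2 higher and 6 lower on ERCC scaling), with a median of 0.02, beside 47.8% of all genes called on TMM and 59.2% on ERCC scaling. TAF5L, a scaffold subunit of the core, went from 149 ± 4.34 to 245 ± 5.65 CPM (SD, n = 4), a log2 change of 0.72 (edgeR adjusted p = 5.29e-10), and its footprints rose by 0.61 (limma adjusted p = 0.000405). Its partner TAF6L, which was named after its values were seen, was higher by 0.42 in RNA (adjusted p = 6.84e-06) and by 0.50 in footprints (adjusted p = 0.00761), the latter lost without DMSO replicate 1 (adjusted p = 0.0873) or STM2457 replicate 2 (adjusted p = 0.144). SUPT20H, which holds the core together, was lower by a change of -0.32 in RNA (adjusted p = 1.81e-06), and SUPT7L was higher by 0.29 (adjusted p = 1.96e-06) on TMM scaling but at 0.09 (adjusted p = 0.132) on ERCC scaling.

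In the acetyltransferase module, 1 of 5 genes was higher and 3 lower in RNA (1 and 4 on ERCC scaling), and 0 of 5 were called in footprints. TADA2B, the adaptor that sets SAGA's enzyme apart from that of ATAC, rose by 0.69 (edgeR adjusted p = 3.27e-09). The acetyltransferase KAT2B changed by -0.26 (adjusted p = 0.000263) and the adaptor TADA3 by -0.14 (adjusted p = 0.00340). Of the other SAGA subunits, the splicing factor SF3B5 changed by -0.31 in RNA (adjusted p = 2.60e-07) and by -0.34 in footprints (limma adjusted p = 0.0193). The SF3B5 footprint call was lost when either DMSO library or STM2457 replicate 1 was left out, at adjusted p from 0.0987 to 0.143. SF3B3 and the activator-binding scaffold TRRAP were at 0.10 (adjusted p = 0.0190) and 0.11 (adjusted p = 0.0466) on TMM scaling and at -0.10 and -0.09 on ERCC scaling. Calls in this list of 3 fell to 1 without DMSO replicate 3 or STM2457 replicate 1.

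In ATAC, the acetyltransferase complex that shares part of SAGA's enzyme module, 4 of 9 genes were higher in RNA and 1 lower (3 and 4 on ERCC scaling). KAT14 was higher by 0.54 (edgeR adjusted p = 5.58e-07), DR1 by 0.36 (adjusted p = 7.91e-07) and ZZZ3 by 0.48 (adjusted p = 2.44e-05), and each remained called on ERCC scaling. With the RNA signal of the series table ZZZ3 was at 0.09 (limma adjusted p = 0.263), which lost the call, and its footprints stood at -0.24 (limma adjusted p = 0.332). DR1 was also called in footprints, at 0.42 (limma adjusted p = 0.0131), but not without DMSO replicate 1 (0.20, adjusted p = 0.466) or STM2457 replicate 1 (adjusted p = 0.0568). Of the other TREX-2 subunits, which use ENY2 in mRNA export, 1 of 5 was higher and 1 lower in RNA (0 and 4 on ERCC scaling). CETN3 changed by -0.26 in RNA (adjusted p = 0.000176) and by -0.48 in footprints (limma adjusted p = 0.0268), the latter lost when either DMSO library or STM2457 replicate 1 was left out, at adjusted p from 0.0904 to 0.189. SEM1 stood at 0.11 in RNA (adjusted p = 0.00809) on TMM scaling and at -0.09 on ERCC scaling, and the scaffold MCM3AP, at 0.04 (adjusted p = 0.249), did not pass the test on TMM scaling and stood at -0.16 on ERCC scaling.

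Among the enzymes that put ubiquitin on H2B and the PAF1 complex that recruits them, 3 of 11 were higher in RNA and 4 lower (0 and 8 on ERCC scaling), with 0 of 11 called in footprints. The ubiquitin-conjugating enzymes UBE2B and UBE2A changed by -0.25 (edgeR adjusted p = 2.93e-05) and -0.16 (adjusted p = 0.000307), and the PAF1 subunit SKIC8 by -0.15 (adjusted p = 0.000461). Calls in this list fell to 4 without DMSO replicate 1, 3 or 4 and to 3 without STM2457 replicate 4. Of 11 other histone H2A and H2B deubiquitinases, 4 were higher in RNA and 1 lower (2 and 6 on ERCC scaling), and leaving out STM2457 replicate 3 raised the calls from 5 to 8. USP36 was higher by 0.48 in RNA (adjusted p = 2.59e-08) and by 0.45 in footprints (limma adjusted p = 0.00820), the latter lost without DMSO replicate 1 (adjusted p = 0.0719) or STM2457 replicate 2 (0.25, adjusted p = 0.297). USP44 was higher by 0.52 in RNA (adjusted p = 2.23e-06), and USP49 by 0.21 (adjusted p = 0.00117) on TMM scaling but at 0.01 on ERCC scaling.

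The other ataxin and polyglutamine disease genes, background for ATXN7, gave 2 of 10 higher and 2 lower in RNA (2 and 7 on ERCC scaling) and 0 of 9 called in footprints. ATXN1, the repeat gene of another inherited ataxia, rose by 0.61 (edgeR adjusted p = 1.61e-07) and its relative ATXN1L by 0.46 (adjusted p = 6.07e-08). ATXN10 changed by -0.16 (adjusted p = 0.00159). A fall of the size seen in ATXN7L3B appeared in none of the genes named from these lists, whose RNA changes lay between -0.32 and 0.72.

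The genes whose profile was nearest to that of ATXN7L3B were HNRNPLL, SDHAF1, PCNX4, ZBTB26 and CHML. Likeness was the Euclidean distance over 12 libraries of log2 values relative to the DMSO mean, among 10299 genes, with a median of 5.73. HNRNPLL, an RNA-binding regulator of splicing, lay at 0.578, with log2 changes of -2.04 in RNA and -2.96 in footprints. SDHAF1, an assembly factor of the respiratory enzyme succinate dehydrogenase, lay at 0.817, with -2.05 and -2.81. PCNX4 at 1.17, ZBTB26 at 1.24 and CHML at 1.34 had smaller RNA changes of -1.41, -1.41 and -1.64 and footprint changes of -2.82, -2.90 and -2.45. With STM2457 the mean footprint signal was only 9.65 for ZBTB26 and 15.4 for SDHAF1. A read was worth 3.80 or 3.90 in those libraries, so these footprint changes rest on few reads. All 5 had a lower efficiency with STM2457, from -1.41 for ZBTB26 to -0.70 for CHML. That direction follows from how the 5 were chosen, by nearness to a gene whose footprints fell more than its RNA. It is not a separate result. ATXN7L3 lay at 5.70 and USP22 at 5.21, close to the median gene.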

How the data were processed

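RNA-seq of 8 libraries and Ribo-seq of 4 were used. The authors deposited raw read counts per gene for RNA-seq, with 92 ERCC sequences left out of the tests except for scaling. The submitters' processing notes name the aligner STAR 2.7.3a, featureCounts of Subread 2.0.3 and the build GRCh38.p12, and also DESeq2, SAMtools 1.10, UMI-tools 1.1.2, FastQC 0.11.9 and bedtools 2.29.2, without saying which was used where. The series table of 12224 genes holds the authors' normalized signal per library, their efficiency ratio per arm and its log2 change. Per the file headers these values are normalized; how the authors normalized them is not given in the sources used here. Their mean RNA signal of the DMSO arm equals that of replicates 1 to 3, and the mean of the STM2457 arm was not checked. Footprint signals were whole multiples of 1 read's worth (100% of values within 0.1 of a whole read), so reads could be recovered. Symbols matched 60306 of 60662 genes.

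RNA was tested in R 4.3.3 by the quasi-likelihood method of edgeR 4.0.16 (TMM, filterByExpr, 17807 genes). CPM used TMM factors, and log2 CPM a prior count of 2. Footprints were tested with limma 3.58.1 on log2(signal + 1) for the 10906 genes that averaged 10 or more recovered reads a library. Footprint fold changes are on that scale, which understates changes of low genes. Efficiency was tested with limma as the interaction of assay and treatment, with a weight per assay. Both assays were taken from the signal of the series table there. An efficiency change therefore need not equal the footprint change minus the RNA change from the counts. A mean-variance trend was used in both limma fits. It was chosen after the data were seen: the footprint fit without it recovered few changes in simulated data and called 232 genes rather than 1715, with USP22 not among them. For efficiency it raised the simulated recovery less, and mainly for small changes. The threshold was a Benjamini-Hochberg adjusted p of 0.05. The fits were tested on simulated data. At that threshold 9.88% of simulated RNA calls, 6.78% of footprint calls and 2.33% of efficiency calls were false. The RNA and footprint shares exceed the 0.05 aimed at. The simulations changed 200 of 17807 genes in RNA and 200 of 10906 in footprints, and were not repeated. In the data 47.8% and 15.7% of genes were called, so the false share of the real calls may differ and is not known. Calls close to the threshold are to be read with caution.

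The members and lists were chosen with earlier results of these data known. Named were all 9 members, of each related list the 3 genes with the smallest RNA p, and the 5 genes nearest to ATXN7L3B. TAF6L and, in the closing observations, USP27X-DT were added after their values were seen. Nearest genes needed a mean of at least 5 CPM, at least 10 footprint reads and a symbol. Alternatives covered normalization (DESeq2 size factors, ERCC), DESeq2 1.42.0, filters, pseudocounts, recovered reads, replicate blocks and left-out libraries.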

Additional observations from a re-analysis of the deposited data

How the results depend on the processing

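Limits first: USP51, USP27X, ATXN7L1 and ATXN7L3 had 7 to 67 footprint reads a library, so their footprint and efficiency changes were measured with wide error, and ATXN7 rested on 65 to 88 RNA reads. RNA directions of small changes depend on the scaling. Of 346 values for the 8 genes other than ATXN7L3B under an alternative, 312 kept direction and side of the threshold, 25 lost the call, 1 gained it and 8 changed sign. ATXN7L3B kept its sign in all 48.

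Calls in RNA among the 8 were 4 with ERCC scaling, 5 with replicates 3 and 4 only, 5 of 7 with the RNA signal of the series table and limma (added after seeing the data), and 7 to 8 leaving out a library. The USP22 footprint call was lost, leaving 0, with edgeR on recovered reads, without the trend and with the replicate block (adjusted p = 0.0708), and leaving out a library gave 0 to 1. Footprint calls among related genes were 0 without the trend and 2 to 6 leaving out a library. Efficiency calls among the 7 genes were 0 under every alternative run.

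Signs changed in these cases, and the cause was not tested. On ERCC scaling ATXN7L3 RNA was -0.04, SF3B3 -0.10, TRRAP -0.09, SEM1 -0.09 and MCM3AP -0.16. With the RNA signal of the series table SF3B3 was -0.10 and MCM3AP -0.03. Leaving out a library, ATXN7L1 footprints ranged from -0.06 (without DMSO replicate 1) and -0.05 (without STM2457 replicate 2) to 0.62, and its efficiency was -0.20 without either of those. ATXN7L3 footprints ranged from -0.54 to 0.03, the latter without DMSO replicate 1. USP22 efficiency was -0.01 with the edgeR interaction and -0.02 without STM2457 footprint replicate 2.

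Over all genes, footprint calls were 1715, 232 without the trend and 1004 without DMSO replicate 2. Efficiency calls were 113, 825 with one spread for both assays, 425 with the edgeR interaction, 70 without the trend and 37 to 129 leaving out a library. RNA calls in related lists ranged over all alternatives from 3 to 8 for H2B ubiquitination, 2 to 5 for the acetyltransferase module, 1 to 3 for the other SAGA subunits, 1 to 4 for TREX-2, 4 to 9 for ataxins and 4 to 8 for other deubiquitinases, where the replicate block gave 8.

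ATXN7L3B minus ATXN7L3 ranged from -2.08 to -2.02 in RNA and from -3.19 to -2.35 in footprints when a library was left out. The labels do not say that replicate numbers pair libraries, and the correlations did not settle it. Deviations of same-numbered RNA libraries correlated at 0.151, 0.227, 0.148 and 0.0763. The best other number gave 0.111, 0.156, 0.113 and 0.275. Footprints correlated at 0.00641 with the same number. With 2 libraries an arm, the -0.00641 for the other number is fixed as the negative of that value and adds nothing. With the replicate block all 8 genes were still called in RNA, and 9542 genes in all rather than 8511.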

Other observations

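The divergent transcript of the USP27X promoter region, USP27X-DT, was looked up after the USP27X values were seen. Its counts were 107, 112, 93 and 108 with DMSO and 44, 60, 44 and 66 with STM2457. The arms did not overlap, beside 44.7% of all genes. The log2 change was -0.86 (SE 0.13, edgeR adjusted p = 0.000171), beside 21.6% of all tested genes called lower, and USP27X itself was at 0.72. An opposite sign was not particular to this pair. ZMPSTE24-DT was at -1.09 with ZMPSTE24 at 0.06, and PRKACB-DT at 0.34 with PRKACB at -0.15. How divergent transcripts moved as a class, and whether USP27X and USP27X-DT are linked, was not tested.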
